A study of Mus musculus with 9 samples.

Results

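The mean of both groups of stressed mice, with equal weight for each group, was compared with non-stressed mice in RNA sequencing of the medial prefrontal cortex, over every gene that could be tested. The comparison used all 9 libraries of the series: 6 from stressed mice and 3 from non-stressed mice. Its question was which genes differed from the non-stressed level by a like amount in both stressed groups, whatever the mice had been given. Of 15144 genes tested, 218 (1.44%) differed between the stressed mean and the non-stressed libraries, and 132 of these (0.872% of the genes tested) shifted alike in both stressed groups.

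All mice were of the inbred strain DBA2/J. The group NS is labelled non-stressed and saline. SA:ANH-vehicle mice went through social defeat for 5 days, in which a mouse is repeatedly exposed to an aggressor, belonged to the SA:ANH subtype and are labelled with saline. SA:ANH-KDM5Ci mice had the same stress and subtype and received an inhibitor of KDM5C, an X-linked enzyme that removes methyl groups from lysine 4 of histone H3. Where titles and design text speak of vehicle, the labels for treatment say saline. What SA:ANH stands for, how the mice were assigned to it, their age and their sex are not given in the sources used here. Stressed mice of another subtype are not among the samples, so stress and subtype cannot be told apart. The inhibitor was given only to stressed mice. The labels do not state whether the 3 libraries of a group came from separate animals, so every p-value rests on the spread between libraries, which may be technical.

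Libraries held between 29845097 and 42196472 counts. CPM below are counts scaled to a library total of 1000000. The leading principal component of log2 CPM held 29.4% of the variance, and on it SA:ANH-KDM5Ci libraries lay at 21.4, 12.5 and 22.2 and the other 6 libraries between -19.3 and -3.39, so this axis separated the inhibitor group and not stressed from non-stressed mice. Markers of cortical excitatory neurons were abundant, for example Slc17a7, the vesicular glutamate transporter, at 1656 ± 39.3 CPM in NS and 1550 ± 49.0 CPM over the stressed libraries (SD, n = 3 and n = 6). Striatal neuron markers were present as well and varied within groups: their summed level ran from 625 to 875 CPM in NS, from 646 to 808 CPM in SA:ANH-vehicle and from 746 to 1404 CPM in SA:ANH-KDM5Ci. In bulk tissue, fewer cells of a type and less RNA per cell cannot be told apart.

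The prefrontal cortex helps to govern emotion and behaviour towards other animals, and repeated defeat activates hormonal and neural stress systems that reach it. Neurons and glia make most of the cholesterol of the brain locally, because lipoprotein cholesterol hardly crosses the blood-brain barrier. The enzymes of that route are transcribed under SREBP-2, a membrane-bound transcription factor that INSIG proteins hold in the endoplasmic reticulum while sterol is plentiful. The circadian clock is a feedback loop in which CLOCK and BMAL1 drive their own repressors of the PER, CRY and REV-ERB families, while chaperones of the endoplasmic reticulum are induced by the unfolded protein response.

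A gene was called at an adjusted p under 0.05 in edgeR's quasi-likelihood F-test, adjusted after Benjamini and Hochberg over the 15144 genes. It was taken as alike if it was called, both stressed groups deviated from NS in the same direction, and the difference between the stressed groups was itself not called and smaller than the pooled change. Each stressed group then carried 0.5 to 1.5 times the pooled log2 fold change. Of the 218 called genes, 111 were higher and 107 lower in stressed mice (0.733% and 0.707% of the genes tested). Alike genes comprised 60 that rose and 72 that fell (0.396% and 0.475%). The remaining 86 called genes were not alike: for 45 that were higher and 34 that were lower the stressed groups were called different from each other, and for 6 and 1 they lay on opposite sides of NS. Compared directly, SA:ANH-KDM5Ci had 135 higher and 245 lower calls against SA:ANH-vehicle (0.891% and 1.62%).

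Shifts shared by both stressed groups were small. The median size among alike genes was 0.34 on the log2 scale, or 1.27-fold, with a range from 0.17 to 1.73, and 98 of 132 were under 0.5. All 6 stressed libraries lay beyond all 3 NS libraries for 125 of the 132, against 3.22% of all tested genes with every stressed library above and 2.94% with every stressed library below, a share that the call itself raises. In the single comparisons, 2 of the alike genes were called in SA:ANH-vehicle against NS, which has 2 higher and 0 lower calls in all (0.0132% and 0% of the genes tested). In SA:ANH-KDM5Ci against NS, 121 of the alike genes were called, of 281 higher and 320 lower calls (1.86% and 2.11%). These comparisons share the NS libraries, and the pooled one is made of both. The change was the larger one in SA:ANH-KDM5Ci for 105 of 132 alike genes, and for 40 of them the difference between the stressed groups had an unadjusted p under 0.05, so a like shift here means within the stated bounds and not of equal size.

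**Figure D1:**
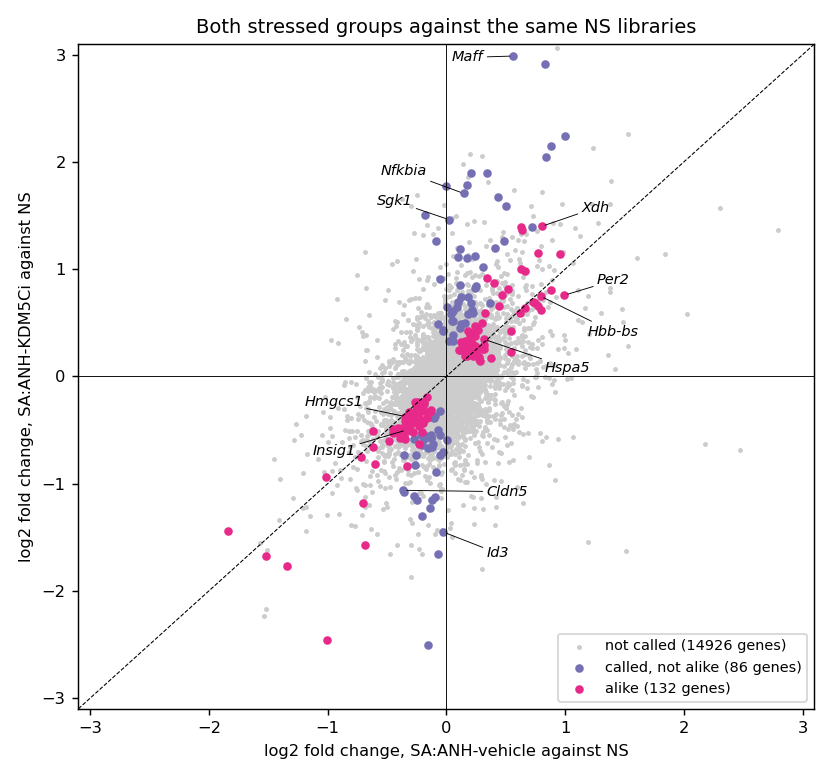
Log2 fold change against NS of SA:ANH-vehicle (horizontal axis) and SA:ANH-KDM5Ci (vertical axis), 1 point per gene; the dashed line marks equal change, and the shared NS libraries by themselves spread points along it. The definition of alike keeps the 132 alike genes within bounds around the dashed line, and 105 of them changed more in SA:ANH-KDM5Ci. The 86 other called genes lie mostly towards the vertical axis. Outside the axes are 7 genes, 1 of them called.

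Haemoglobin genes, the defining transcripts of red blood cells, rose in both stressed groups. Hbb-bs, which encodes a beta chain of haemoglobin (gene 100503605 in NCBI numbering, chr7:103826523-103827928, mm10), was at 81.4, 88.2 and 77.2 CPM in NS, at 138, 149 and 141 CPM in SA:ANH-vehicle and at 130, 127 and 158 CPM in SA:ANH-KDM5Ci. Every stressed library was above every NS library, and the stressed groups overlapped each other. The pooled log2 fold change was 0.77 (SE 0.07, adjusted p = 0.000131), and the difference between the stressed groups was -0.05 (95% interval -0.21 to 0.12). Alas2, the erythroid enzyme that starts haem synthesis, was at 3.73, 4.77 and 3.38 CPM in NS, at 6.59, 7.17 and 6.62 CPM in SA:ANH-vehicle and at 6.30, 6.04 and 6.4 CPM in SA:ANH-KDM5Ci. It rose by 0.71 (SE 0.11, adjusted p = 0.00679).

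Hbb-b1 rose by 0.84 (adjusted p = 0.000131), Hba-a1 by 0.72 (adjusted p = 0.0175) and Hba-a2 by 0.71 (adjusted p = 0.0078). Globin copies are near-identical in sequence and differ in haplotype between DBA2/J and the strain of the reference genome, so how counts were divided among them is uncertain, and the copies are not independent. Of 10 tested blood cell markers, 5 rose and 0 fell, all 5 alike, with a median of 0.74 against 0.00 over all genes. The share called higher over all genes tested was 0.733%. The summed level of the list was 577 to 608 CPM in NS, 725 to 844 CPM in SA:ANH-vehicle and 724 to 871 CPM in SA:ANH-KDM5Ci. The other tested members did not pass: Slc4a1, the red cell anion exchanger, ran from 0.0283 to 0.401 CPM in NS and from 0.162 to 0.588 CPM in stressed libraries, and S100a8, a granulocyte protein, from 0.0848 to 0.703 CPM and from 0.162 to 1.71 CPM. Hbb-bs and Hbb-b1 kept their calls in all 9 fits that left out 1 library, with adjusted p up to 0.00283. Without NS replicate 3 the calls of Alas2 and Hba-a2 were lost (both 0.0570), and Hba-a1 lost its call without any 1 NS library (up to 0.0746).

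Genes of sterol synthesis had the most lower calls of any gene list tested. Of 29 tested genes of sterol and fatty acid synthesis, 16 fell and 0 rose, and 15 of the 16 were alike. The share called lower over all genes tested was 0.707%. The median of the list was -0.33 in the pooled comparison, -0.26 in SA:ANH-vehicle and -0.37 in SA:ANH-KDM5Ci, against 0.00 over all genes tested. Lower values were seen from the head of the mevalonate route to its end, and for sterol transport and control, while the 8 members of fatty acid synthesis did not pass. Lower values were not confined to called genes: 28 of the 29 were below 0, fatty acid members among them. In the same F-test 25 were lower at an unadjusted p under 0.05, and 21 had every stressed library below NS. Over the 15144 genes tested these counts were 1068 and 445, and 7461 genes were below 0. The list was written with earlier results of these data known.

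At the head of the route stands Hmgcs1, which makes HMG-CoA in the cytosol (gene 208715, chr13:119690351-119708260). It was at 493, 497 and 507 CPM in NS, at 368, 395 and 415 CPM in SA:ANH-vehicle and at 340, 421 and 394 CPM in SA:ANH-KDM5Ci. The highest stressed library was below the lowest NS library, and Hmgcs1 fell by 22.1% (log2 fold change -0.36, SE 0.06, adjusted p = 0.0106). The 2 stressed groups carried -0.35 and -0.37, with a difference of -0.03 (95% interval -0.18 to 0.12).

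Further along, Mvd, the decarboxylase that yields isopentenyl pyrophosphate, fell by 0.48 (adjusted p = 0.0293), and Sqle, the squalene epoxidase, by 0.38 (adjusted p = 0.0144). The isomerase Idi1 fell as well, by 0.43 (SE 0.06, adjusted p = 0.00294), but not alike: it was at -0.27 in SA:ANH-vehicle and -0.58 in SA:ANH-KDM5Ci, and the stressed groups differed (adjusted p = 0.0292). Later steps from lanosterol to cholesterol fell in like measure. Cyp51 fell by 0.31, Msmo1 by 0.35, Nsdhl by 0.34, Sc5d by 0.26 and Dhcr7 by 0.34. Members of the route that did not pass were Mvk at -0.34 (adjusted p = 0.209), Fdps at -0.21 (0.286), Fdft1 at -0.20 (0.0896) and Lss at -0.33 (0.0985).

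Genes that regulate this system or carry sterol were lower too. Insig1, which retains the SREBP complex, was at 118, 107 and 98.6 CPM in NS, at 89.0, 82.0 and 85.9 CPM in SA:ANH-vehicle and at 69.0, 83.9 and 76.1 CPM in SA:ANH-KDM5Ci. It fell by 0.42 (SE 0.07, adjusted p = 0.00796). Insig1 carried -0.33 in SA:ANH-vehicle and -0.50 in SA:ANH-KDM5Ci, with a difference of -0.17 (95% interval -0.33 to -0.00088). Stard4, a cholesterol carrier, fell by 0.36 (adjusted p = 0.0343) and Srebf2, which encodes SREBP-2, by 0.18 (adjusted p = 0.0316). Srebf1, the isoform gene that leads fatty acid synthesis, was at -0.00 (adjusted p = 0.982). Fasn, fatty acid synthase, was at -0.17 (adjusted p = 0.0724) and Elovl6, an elongase, at 0.04 as the only member with a positive value.

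Another 2 alike genes outside that list belong to the same metabolism and were named after their values were seen: Acat2, the cytosolic thiolase that feeds HMG-CoA synthesis, fell by 0.30 (adjusted p = 0.0231) and Aacs, which activates acetoacetate for sterol synthesis, by 0.25 (adjusted p = 0.044).

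The count of sterol genes depended on single libraries, while each of their pooled values stayed below 0 in every fit. The kept sign says little, since for 21 of the 29 list members every stressed library lay below NS. Insig1 and Idi1 kept their calls in all 9 fits that left out 1 library (adjusted p up to 0.0396 and 0.0192). Without NS replicate 1, 2 or 3, the list had 7, 5 and 4 members called lower in place of 16, and 8 without SA:ANH-vehicle replicate 2 and 9 without SA:ANH-KDM5Ci replicate 1. Hmgcs1 and Nsdhl lost their calls without NS replicate 2 or 3 (up to 0.0746 and 0.0663), and Sqle without NS replicate 1 or 3 (up to 0.0778). Cyp51, Msmo1, Sc5d, Dhcr7, Mvd, Stard4 and Srebf2 lost theirs without NS replicate 1 or 2 and without 2 to 6 further libraries each, with adjusted p up to 0.217. Over the same libraries, astrocyte markers had a median of -0.04 with 0 higher and 1 lower call of 20, and markers of oligodendrocytes and myelin, whose cells use much cholesterol, a median of 0.31 with 0 calls of 19 (0.10 in SA:ANH-vehicle and 0.51 in SA:ANH-KDM5Ci). Lists of this size also reach such counts at the 1.44% of all genes that were called. The part of these cells in the sterol result was not tested. With a striatal marker score as a covariate 7 sterol genes were called lower, and with a meningeal score 14.

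Promoters are shown for Hmgcs1, from the sterol genes that fell together, and for Hspa5 and Hsp90b1, the chaperone genes described next, since motifs for the factors named above occur in them. Each is the 250 bases before the annotated start, 5′ to 3′ on the gene's strand, from RefSeq on GRCm38.p6, the assembly of mm10, with matches to searched motifs in capitals. For Hmgcs1 the capitals mark a sterol regulatory element. For Hspa5 and Hsp90b1 they mark endoplasmic reticulum stress elements and, in Hsp90b1, also a match to the sterol motif on the opposite strand, 54 bases before the start.
Hmgcs1 (chr13:119690101-119690350, plus strand): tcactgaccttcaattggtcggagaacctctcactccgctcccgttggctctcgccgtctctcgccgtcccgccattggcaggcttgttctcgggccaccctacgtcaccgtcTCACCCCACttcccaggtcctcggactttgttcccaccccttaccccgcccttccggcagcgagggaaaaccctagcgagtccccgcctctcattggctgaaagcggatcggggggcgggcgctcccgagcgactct
Hspa5 (chr2:34771840-34772089, plus strand): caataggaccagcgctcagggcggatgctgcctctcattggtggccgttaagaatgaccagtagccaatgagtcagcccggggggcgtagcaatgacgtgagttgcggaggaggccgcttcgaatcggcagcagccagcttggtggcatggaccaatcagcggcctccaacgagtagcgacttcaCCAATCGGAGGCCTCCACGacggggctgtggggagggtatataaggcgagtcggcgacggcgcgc
Hsp90b1 (chr10:86705445-86705694, minus strand): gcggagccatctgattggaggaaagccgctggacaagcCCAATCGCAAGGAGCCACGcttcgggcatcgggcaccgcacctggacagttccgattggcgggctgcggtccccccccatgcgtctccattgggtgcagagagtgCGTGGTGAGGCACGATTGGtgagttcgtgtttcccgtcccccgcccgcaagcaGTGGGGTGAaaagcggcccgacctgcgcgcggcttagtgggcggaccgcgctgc

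The motifs were searched on both strands of the window from 250 bases before to 50 bases after the start, which was held for 11898 of the tested genes. The sterol motif TCACNCCAC occurred in 1.40% of them, and in 1 of 18 sterol list promoters held, that of Hmgcs1. The stress element CCAAT followed after 9 bases by CCACG occurred in 21 promoters, or 0.176%, and 9 of those belong to the 18 promoters of the endoplasmic reticulum chaperone list. The heat shock motif GAA, TTC and GAA with 2 bases between each was in 0.622% of all and in 4 of 19 promoters of the heat shock list, and the clock E-box CACGTG in 11.1% of all and in 4 of 20 promoters of the clock lists. A match is a string of letters and no evidence of binding, and its absence says nothing beyond the window.

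Of 21 tested chaperones of the endoplasmic reticulum and genes of the unfolded protein response, 2 rose and 0 fell, both alike, and 20 had a positive value, with a median of 0.17 (0.16 in SA:ANH-vehicle and 0.14 in SA:ANH-KDM5Ci). Over all 15144 genes tested, 0.733% were called higher and 7683 had a positive value. Hspa5, which encodes the chaperone BiP (gene 14828, chr2:34772090-34776529), was at 298, 296 and 270 CPM in NS, at 330, 377 and 368 CPM in SA:ANH-vehicle and at 357, 346 and 396 CPM in SA:ANH-KDM5Ci. All stressed libraries were above NS, and it rose by 0.33 (SE 0.06, adjusted p = 0.0144), with 0.31 and 0.35 in the stressed groups. Hsp90b1, the HSP90 paralogue of the same compartment, was within 388 to 391 CPM in NS and 421 to 461 CPM in stressed libraries. It rose by 0.17 (SE 0.04, adjusted p = 0.0404).

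Further members were close to the threshold without passing it: Calr, calreticulin, at 0.22 (adjusted p = 0.0532), Dnajc3, a BiP co-chaperone, at 0.18 (0.055), and the disulfide isomerases Pdia4 and Pdia6 at 0.22 and 0.26 (0.057 and 0.0582). For each of these 4 all stressed libraries were above NS, which held for 8 of 21 list members and for 3.22% of all genes tested. The 19 tested targets of ATF4, another branch of the stress response, had 0 calls and a median of 0.05. A list of this size also reaches 0 at the 1.44% of all genes that were called, so nothing is read from the count. Among 25 heat shock and J-domain chaperones of the cytosol, 2 rose and 0 fell, against 0.733% of all genes called higher. Hspb1, a small heat shock protein, was at 4.13, 4.24 and 3.65 CPM in NS, at 6.96, 6.02 and 5.50 CPM in SA:ANH-vehicle and at 6.33, 5.24 and 6.57 CPM in SA:ANH-KDM5Ci, and rose by 0.61 (SE 0.11, adjusted p = 0.0198). Chordc1, an HSP90 co-chaperone, rose by 0.21 (adjusted p = 0.0216). It carried 0.28 in SA:ANH-vehicle and 0.15 in SA:ANH-KDM5Ci, with a difference of -0.13 (95% interval -0.23 to -0.03). The strongly heat-inducible Hspa1b was at 0.16 (adjusted p = 0.347) and Hspa1a, a near-identical copy, at 0.01.

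Most of these chaperone calls leaned on single libraries. Hspa5 lost its call without NS replicate 2 or 3 (adjusted p up to 0.112) and with the meningeal score as a covariate. Hsp90b1 kept it only without SA:ANH-vehicle replicate 1 (up to 0.212 otherwise). Hspb1 lost it without NS replicate 2 or 3 or SA:ANH-KDM5Ci replicate 1 (up to 0.131), and Chordc1 without any 1 of 6 libraries, among them all 3 of NS (up to 0.131).

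Clock genes rose and fell within 1 small group. Per2, a core repressor (gene 18627, chr1:91415977-91459351), was at 21.9, 21.1 and 20.2 CPM in NS, at 33.3, 46.1 and 47.0 CPM in SA:ANH-vehicle and at 44.3, 34.7 and 28.4 CPM in SA:ANH-KDM5Ci. NS was narrow and the stressed libraries were wide, with no overlap, and Per2 rose by 0.87 (SE 0.16, adjusted p = 0.0386). It was the only call among 16 core clock genes. Of 9 output genes, 2 rose and 2 fell, 3 of them alike. Over all genes tested, 1.44% were called and 0.872% were alike. Nr1d2, the repressor REV-ERB beta, was at 132, 138 and 134 CPM in NS, at 175, 165 and 163 CPM in SA:ANH-vehicle and at 163, 166 and 154 CPM in SA:ANH-KDM5Ci, and rose by 0.29 (SE 0.04, adjusted p = 0.00583).

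Dbp, an activator under direct clock control, rose by 0.38 (adjusted p = 0.0249), with 0.54 in SA:ANH-vehicle and 0.23 in SA:ANH-KDM5Ci (difference -0.32, 95% interval -0.50 to -0.14, adjusted p = 0.0721). Nr1d1, the paralogue of Nr1d2, fell by 0.28 (adjusted p = 0.0251). It was at 137, 129 and 134 CPM in NS, at 130, 109 and 119 CPM in SA:ANH-vehicle and at 98.1, 106 and 102 CPM in SA:ANH-KDM5Ci, so SA:ANH-vehicle overlapped NS. Nr1d1 carried -0.16 in SA:ANH-vehicle and -0.39 in SA:ANH-KDM5Ci, with a difference of -0.23 (95% interval -0.36 to -0.09). It overlaps Thra on the genome. Usp2, a clock-driven deubiquitinase, fell by 0.25 (adjusted p = 0.0083) but differed between the stressed groups (adjusted p = 0.00907). Clock members near the threshold were Tef at 0.22 (0.0529), Hlf at 0.24 (0.0684), Per3 at 0.27 (0.0699) and Cry1 at 0.34 (0.0707), and Arntl, which encodes BMAL1, at -0.23 (0.057). The time of day of tissue collection is not given in the sources used here.

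Nr1d2 lost its call only without NS replicate 3 (adjusted p = 0.0566). Dbp lost it without NS replicate 2 or 3 or SA:ANH-vehicle replicate 2 (up to 0.162), Nr1d1 without any 1 NS library, replicate 3 of SA:ANH-vehicle or replicate 1 of SA:ANH-KDM5Ci (up to 0.131), and Usp2 without NS replicate 2 (0.0555). Per2 lost it without any 1 NS library, replicate 2 or 3 of SA:ANH-vehicle or replicate 2 of SA:ANH-KDM5Ci (up to 0.183).

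Of the splicing factors of the SR family, 2 rose. Srsf10 (gene 14105, chr4:135855752-135869908), a splicing regulator that is dephosphorylated on heat shock, was at 59.4, 62.4 and 62.6 CPM in NS, at 74.9, 76.2 and 78.4 CPM in SA:ANH-vehicle and at 77.7, 76.0 and 71.8 CPM in SA:ANH-KDM5Ci. It rose by 0.30 (SE 0.04, adjusted p = 0.0042), with 0.32 and 0.29 in the stressed groups, and kept its call in all 9 fits without 1 library (up to 0.0271). Srsf3 rose by 0.22 (adjusted p = 0.027), a call lost without replicate 2 or 3 of NS, replicate 2 or 3 of SA:ANH-vehicle or replicate 1 of SA:ANH-KDM5Ci (up to 0.155). These were the 2 calls among 27 cold-inducible and splicing genes, whose median was 0.08, against 0.733% of all genes called higher. Srsf3 carried 0.28 in SA:ANH-vehicle and 0.16 in SA:ANH-KDM5Ci, with a difference of -0.11 (95% interval -0.22 to -0.006). The cold-inducible Cirbp and Rbm3 were at -0.22 (adjusted p = 0.107) and -0.14 (0.459).

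The largest alike rises outside these groups were in genes of varied function. Xdh, xanthine dehydrogenase of purine breakdown (gene 22436, chr17:73883895-73950397), was at 4.13, 4.15 and 3.88 CPM in NS, at 7.55, 6.77 and 6.88 CPM in SA:ANH-vehicle and at 15.2, 8.79 and 8.34 CPM in SA:ANH-KDM5Ci. It rose by 1.10 (SE 0.18, adjusted p = 0.0173), and SA:ANH-KDM5Ci replicate 1 stood above all others. Xdh carried 0.80 in SA:ANH-vehicle and 1.40 in SA:ANH-KDM5Ci, with a difference of 0.60 (95% interval 0.18 to 1.02). Acer2, a Golgi ceramidase, was at 7.91, 7.0 and 9.0 CPM in NS, at 17.6, 15.6 and 12.9 CPM in SA:ANH-vehicle and at 23.2, 15 and 14.5 CPM in SA:ANH-KDM5Ci, and rose by 1.05 (SE 0.18, adjusted p = 0.0217). Of the 132 alike genes, 3 rose at least 2-fold: Xdh, Acer2 and Tcim, a regulator of transcription at up to 2.0 CPM that overlapped NS. Another 5 fell at least 2-fold, Prss56, Rhcg, Cass4 and the transcripts 4933417O13Rik and 4930486I03Rik, all at 1.20 CPM or less in every library. These 5 and Tcim were named after their values were seen, and their calls were lost without NS replicate 3 and at least 5 further libraries each (adjusted p up to 0.241).

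Other rises were those of Il7r, the receptor of interleukin-7, by 1.00 (adjusted p = 0.0257), Mki67, a marker of dividing cells, by 0.96 (0.0438), Adm, which encodes adrenomedullin, a dilator of vessels, by 0.82 (0.0438), and Nfkbiz, an atypical inhibitor of NF-kB, by 0.81 (0.0285). Their levels were low, with stressed libraries at 0.853 to 2.13, 1.95 to 3.94, 1.46 to 2.79 and 5.09 to 8.79 CPM. Il7r carried 0.64 in SA:ANH-vehicle and 1.36 in SA:ANH-KDM5Ci, with a difference of 0.72 (95% interval 0.29 to 1.15). The calls of Xdh, Acer2, Il7r, Mki67, Adm and Nfkbiz were lost without NS replicate 2 or 3. All but that of Nfkbiz were also lost without NS replicate 1, and those of Nfkbiz, Il7r, Mki67 and Adm without SA:ANH-KDM5Ci replicate 1. Acer2, Il7r and Mki67 further depended on SA:ANH-vehicle replicate 2, and Mki67 and Adm on SA:ANH-vehicle replicate 3. The adjusted p values reached 0.108 for Xdh, 0.103 for Acer2, 0.123 for Il7r, 0.239 for Mki67, 0.235 for Adm and 0.145 for Nfkbiz. Camk1g, a calcium-dependent kinase, rose by 0.46 (adjusted p = 0.011) and Jak2, a cytokine receptor kinase, by 0.27 (0.00849), both lost only without NS replicate 3 (0.0859 and 0.057), and both named after their values were seen.

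Among alike genes that fell, those of signalling and transcription included Rgs4, a brake on G protein signalling, which went from 692, 652 and 678 CPM in NS to 604, 566 and 592 CPM in SA:ANH-vehicle and 521, 544 and 567 CPM in SA:ANH-KDM5Ci. It fell by 0.25 (SE 0.04, adjusted p = 0.00921), lost only without NS replicate 3 (0.0737), and was named after its values were seen. Erf, an ETS repressor, fell by 0.35 (adjusted p = 0.00583), kept its call without any 1 library (up to 0.0323) and was at -0.23 in SA:ANH-vehicle and -0.47 in SA:ANH-KDM5Ci. The difference was -0.24 (95% interval -0.37 to -0.11). Sox4, a transcription factor of immature neurons, fell by 0.49 (adjusted p = 0.0173), and lost its call without NS replicate 1 or 3 (up to 0.0967). Usp43, a deubiquitinase, fell by 0.56 (adjusted p = 0.01), lost only without NS replicate 2 (0.0561).

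Neuropeptide and receptor genes held 1 higher and 3 lower calls of 38 tested, of which 2 were alike, against 0.872% of all genes. Mc4r rose by 1.51 (adjusted p = 0.0176) and Cckbr fell by 0.29 (adjusted p = 0.0201), but these were not alike. Adcyap1, which encodes the stress-related peptide PACAP, was at 37.9, 33.8 and 40.4 CPM in NS, at 23.4, 28.3 and 31.3 CPM in SA:ANH-vehicle and at 23.6, 29.4 and 26.2 CPM in SA:ANH-KDM5Ci. It fell by 0.47 (SE 0.09, adjusted p = 0.0349), and Sstr1, a somatostatin receptor, fell by 0.22 (adjusted p = 0.0385). The calls of Adcyap1 and Sstr1 were each kept in 3 of the 9 fits that left out 1 library and lost without any 1 NS library (up to 0.201 and 0.193). Among 32 immediate early genes, Homer1 rose by 0.31 (adjusted p = 0.0386) and Jun fell by 0.35 (adjusted p = 0.0423), each with 2 of 9 calls kept (up to 0.131 and 0.111). No other gene of that list was called, against 1.44% of all genes. Fos itself was at 45.7, 8.19 and 8.43 CPM in NS and did not pass (-0.32, adjusted p = 0.887). The high NS value was that of replicate 1.

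**Figure D2:**
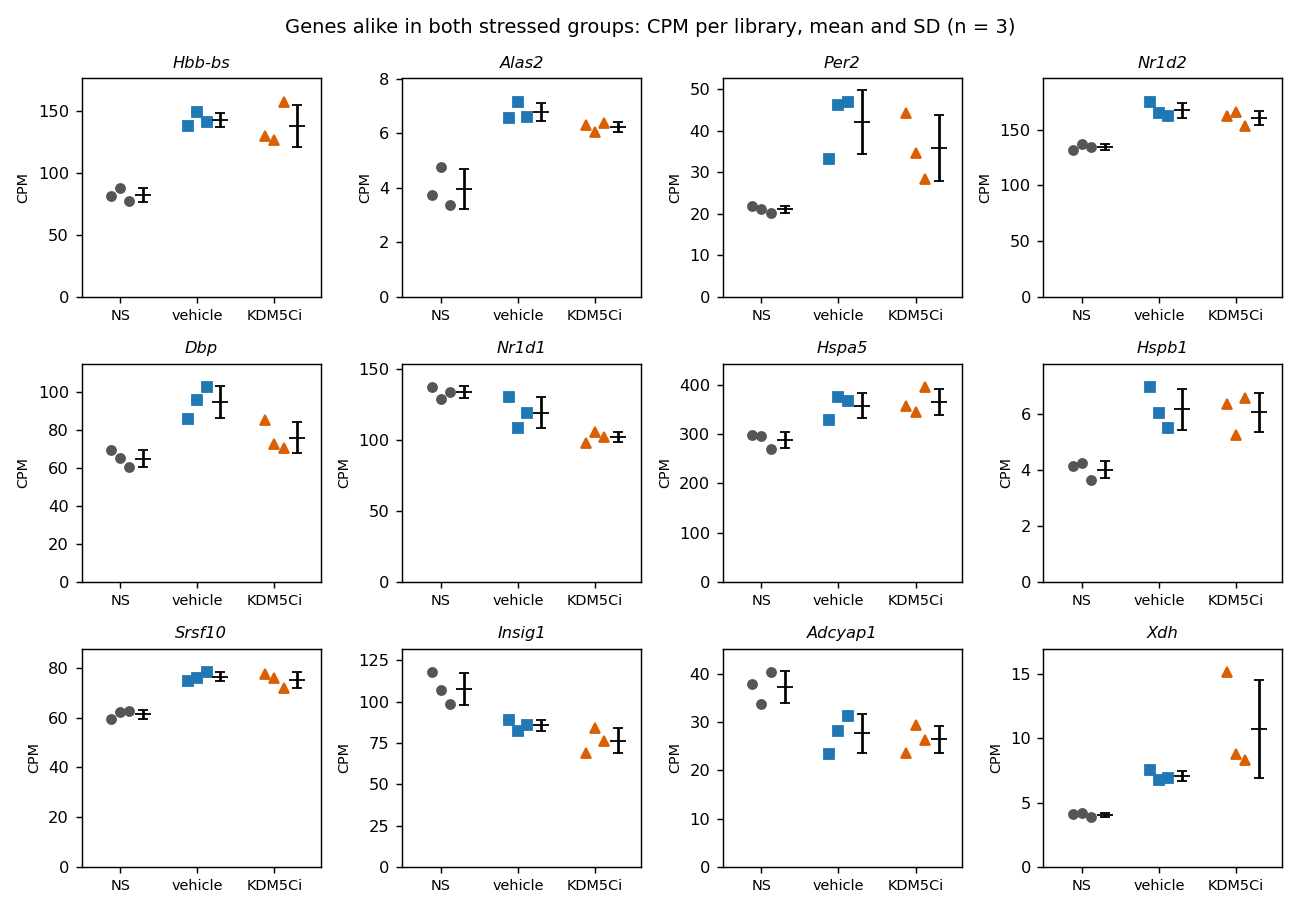
CPM (vertical axes, from 0) of 12 alike genes in each library, by group, with the mean and SD of the 3 libraries in black. Stressed libraries of both groups lie above NS for Hbb-bs, Per2, Hspa5 and Srsf10 and below NS for Insig1 and Adcyap1, while Nr1d1 overlaps NS in SA:ANH-vehicle and Xdh has 1 high library in SA:ANH-KDM5Ci.

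Several lists of neuronal genes held no alike call, a count that lists of this size also reach at the 0.872% of all genes that were alike, so nothing is read from it. Glutamate receptors and transport had 0 alike calls of 28, GABA genes 0 of 22, monoamine genes 0 of 25, and markers of excitatory neurons and interneurons 0 of 17 and 0 of 19. Medians of these lists lay between -0.05 and 0.01. Grm2, the metabotropic glutamate receptor 2, was the 1 called member of these 5 lists. It was at 101, 99.8 and 112 CPM in NS, at 80.0, 85.8 and 78.3 CPM in SA:ANH-vehicle and at 59.6, 72.0 and 57.6 CPM in SA:ANH-KDM5Ci, so both stressed groups lay below NS without overlap. It fell by 0.54 (SE 0.07, adjusted p = 0.00148) and kept its call in all 9 fits without 1 library (up to 0.0162), but was not alike, at -0.36 and -0.73, since the stressed groups differed (adjusted p = 0.0282). Interferon response genes had 0 calls of 37, with medians of 0.29 in SA:ANH-vehicle and -0.20 in SA:ANH-KDM5Ci. Of 22 H3K4 demethylases and methyltransferases, 0 were called, and Kdm5c, the target of the inhibitor, was at 61.6, 61.7 and 63.0 CPM in NS, at 64.0, 66.6 and 60.7 CPM in SA:ANH-vehicle and at 59.4, 57.9 and 57.5 CPM in SA:ANH-KDM5Ci. An inhibitor of the enzyme need not change its RNA, and the pooled value was -0.03 (adjusted p = 0.841). Counts of 0 in the interferon and H3K4 lists are also reached at the 1.44% of all genes called, so nothing is read from them.

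**Figure D3:**
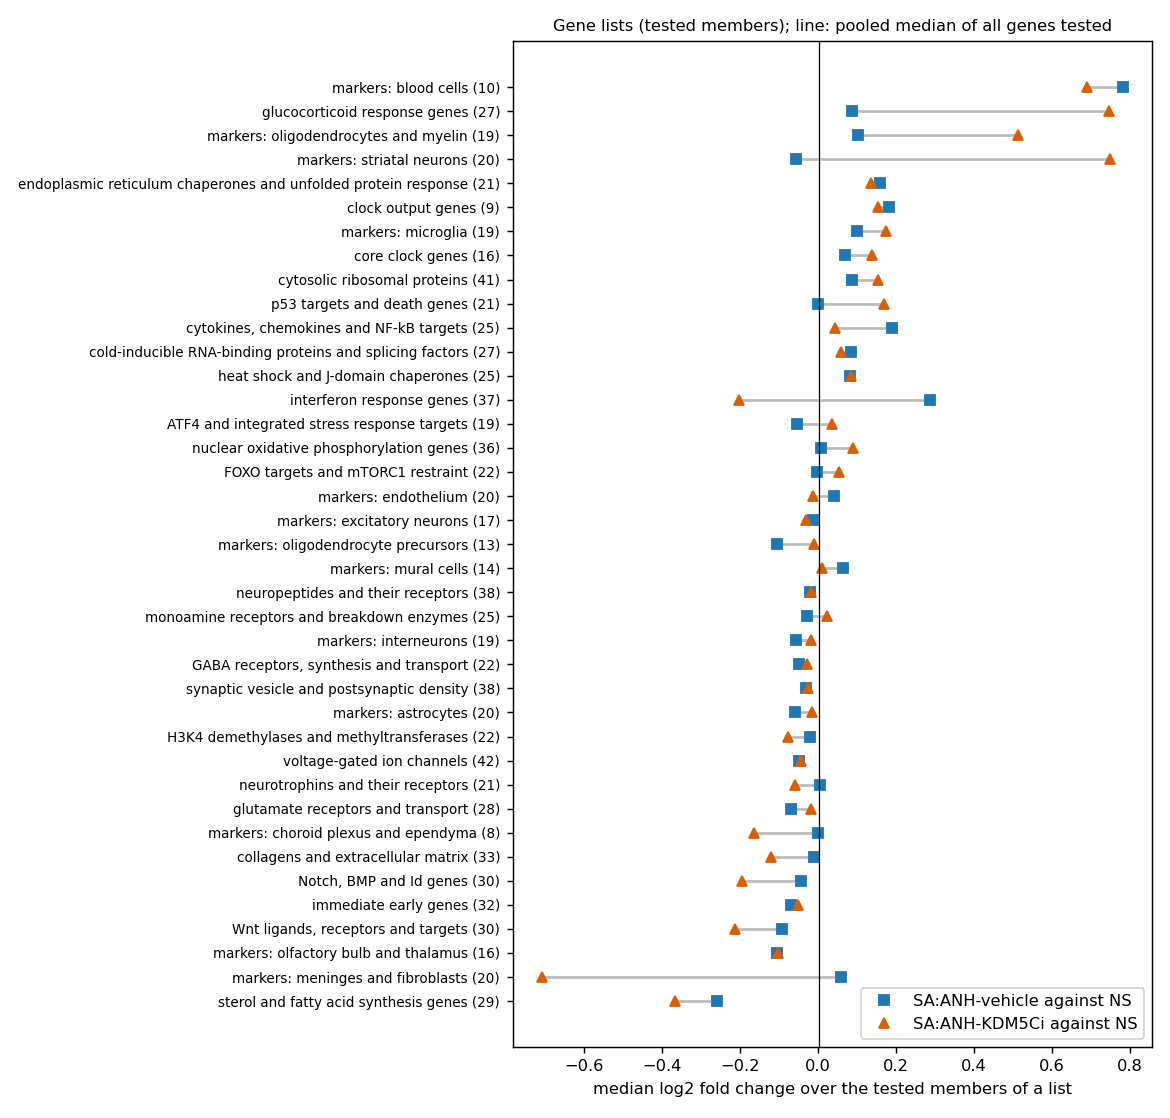
Median log2 fold change against NS over the tested members of each gene list (number of members in brackets), for SA:ANH-vehicle (squares) and SA:ANH-KDM5Ci (triangles). Blood cell markers and the sterol and fatty acid list have both medians far from 0 on the same side, at 0.78 and 0.69 and at -0.26 and -0.37, whereas glucocorticoid, striatal and meningeal lists have a wide gap between the groups.

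Glucocorticoid response genes, the classic targets of the stress hormone receptor, were called often in the pooled comparison but were not alike. Of 27 tested, 12 rose and 0 fell, and only 1, Mt1, met the bounds. Over all genes tested, 0.733% were called higher. The median of the list was 0.09 in SA:ANH-vehicle and 0.74 in SA:ANH-KDM5Ci. Mt1, a metallothionein, rose by 0.35 (adjusted p = 0.0438), a call kept in 1 of 9 fits without 1 library (up to 0.235). Sgk1, a serine/threonine kinase and glucocorticoid target, was at 57.6, 48.4 and 52.9 CPM in NS and at 56.6, 53 and 51.6 CPM in SA:ANH-vehicle, but at 161, 134 and 143 CPM in SA:ANH-KDM5Ci. Its pooled value of 0.74 (adjusted p = 0.000131) thus averaged 0.02 and 1.46.

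Fkbp5, whose product lowers the hormone binding of the glucocorticoid receptor, differed in degree instead: it was at 21.7, 23.6 and 23.1 CPM in NS, at 30.4, 33.1 and 32.5 CPM in SA:ANH-vehicle and at 65.6, 49.0 and 49.5 CPM in SA:ANH-KDM5Ci. The values were 0.49 and 1.26, and the stressed groups differed (adjusted p = 0.00113). Tsc22d3, the glucocorticoid-induced leucine zipper protein, had 0.31 and 1.02 with all stressed libraries above NS. Cldn5, which encodes a claudin of the blood-brain barrier, fell in the pooled comparison by 0.71 (SE 0.05, adjusted p = 1.15e-05), from 38.6 to 39.6 CPM in NS to 29.9 to 30.7 CPM in SA:ANH-vehicle and 17.7 to 19.4 CPM in SA:ANH-KDM5Ci. Its shares of -0.36 and -1.06 differed as well (adjusted p = 1.56e-05). Slc2a1, another endothelial marker, went the other way and rose by 0.68 (adjusted p = 0.000131), also not alike. Among 20 tested endothelial markers, 1 was called higher and 2 lower, with a median of 0.02. Pmaip1, a pro-apoptotic protein, and Ddit4, an inhibitor of mTORC1, were called higher although SA:ANH-vehicle was at -0.18 and -0.08.

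**Figure D4:**
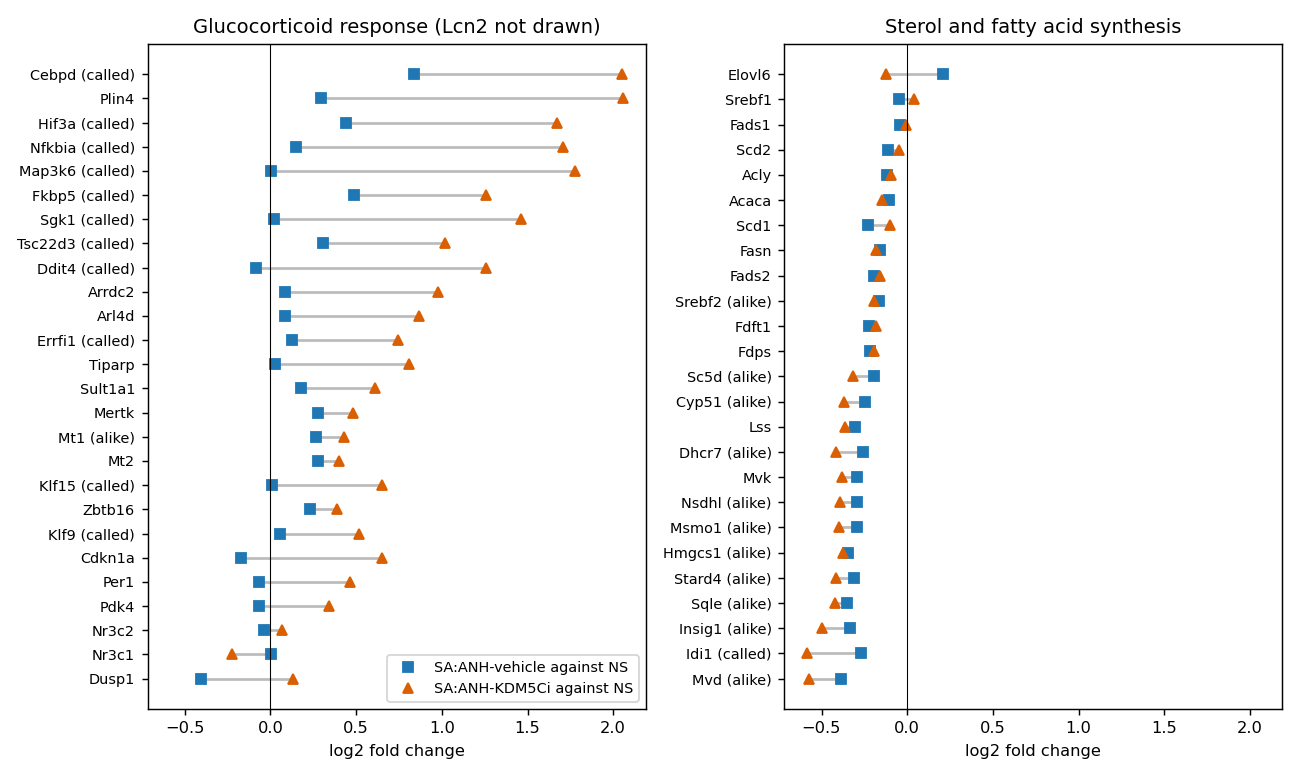
Log2 fold change against NS of SA:ANH-vehicle (squares) and SA:ANH-KDM5Ci (triangles) for tested genes of the glucocorticoid list (left) and 25 of the sterol and fatty acid list (right). Squares of the glucocorticoid list have a median of 0.09, with Fkbp5 at 0.49, Tsc22d3 at 0.31 and Mt1 at 0.26. Triangles of most of these genes lie further right, whereas both symbols of most sterol genes lie together left of 0. Lcn2, at a pooled value of 4.85 that was not called, is not drawn.

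Which genes passed depended on how the stressed libraries entered the fit and on single NS libraries. With all 6 stressed libraries as 1 group, so that the difference between treatments counts as spread, 18 genes were called and all 18 were among the 132. They included Hbb-bs, Hbb-b1, Hba-a1, Hba-a2, Alas2, Nsdhl, Hmgcs1, Nr1d2, Hspa5, Srsf10, Usp43 and Rasl11b, a small GTPase gene, while the other genes named above lost their calls. Leaving out NS replicate 3 kept 10 of the 132 calls of alike genes (adjusted p of the others up to 0.278), NS replicate 2 kept 31 and NS replicate 1 kept 51. In all 9 fits without 1 library the kept calls were those of 7 genes, among them Hbb-bs, Hbb-b1, Srsf10, Erf and Insig1. No alike gene changed direction in any fit run. That was largely set in advance, since for 125 of the 132 all 6 stressed libraries lay beyond all 3 NS libraries. Among the genes named, Hspa5, Alas2, Dbp and Nr1d1 overlap Rabepk, Apex2, Sphk2 and Thra. Myh6, Opn3 and Tmem252, named below, overlap Cmtm5, Chml and Pgm5. Others, such as Insig1, Per2, Xdh, Adcyap1, Chordc1, Sox4, Mvd, Adm and Srebf2, overlap predicted or small RNA genes. Whether counting used the strand is not given in the sources used here. NS replicate 1 also stood apart in striatal and meningeal marker scores, at 0.26 against -0.36 and -0.48, and at -0.20 against 0.36 and 0.43. The part of these scores in single genes was tested only as a covariate. These fits gave 55 and 67 alike genes, of which 42 and 46 were among the 132.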

How the data were processed

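RNA from the medial prefrontal cortex of 9 DBA2/J samples had been sequenced from strand-specific libraries, per the labels' protocols. The deposited values are expected counts (estimated counts that need not be whole) per NCBI gene ID, made by the authors with Trimmomatic 0.32, TopHat2 2.0.13 and Bowtie2 2.2.3 on mm10. These names come from the submitters' processing notes, and which tool counted reads is not given in the sources used here. Of 36172 features, 16922 were at 0 in all libraries, and 32891 IDs matched symbols of RefSeq on GRCm38.p6; unmatched IDs held 0.367% of the counts. Samples were grouped by title.

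Expected counts were rounded, filtered with filterByExpr (15144 genes left) and scaled by TMM (factors 0.987 to 1.01). edgeR 4.0.16 in R 4.3.3 (glmQLFit with robust moderation, glmQLFTest) fitted 1 mean per group over all 9 libraries without a replicate block. The pooled contrast weighted each stressed group by 0.5. Benjamini-Hochberg adjustment ran over all 15144 genes at 0.05, and a standard error is the log2 fold change over the square root of F. The common biological coefficient of variation was 6.95%. Totals of 29845097 to 42196472 counts allow up to 0.0703 to 0.100 CPM where a library has 0 counts (3 counts, counting error only). Code was tested on simulated data.

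The members and gene lists were chosen with earlier results of these data known. Named genes were up to 10 alike genes per direction of largest change (at least 1 CPM, no overlap with NS, known symbol), 5 per direction of lowest p, up to 4 called members of each list, or 2 of lowest p in a list without calls, up to 5 per direction of largest change among called genes not alike, 5 per direction with opposite signs, and Kdm5c; other list members were named to complete their group, after their values were seen. Alternatives were no TMM, voom in limma 3.58.1, DESeq2 1.42.0 or only its size factors, other filters, thresholds and definitions of alike, no robust moderation, a 2-group fit, a replicate block, marker scores (median over a list of gene-centred log2 CPM, prior count 2) as covariates, and each library left out. No set test was made. Some list members are counted but not reported here by name.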

Additional observations from a re-analysis of the deposited data

Results flagged for a closer look

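In SA:ANH-KDM5Ci replicate 1, Xdh was at 15.2 CPM, far from the nearest of the other 5 stressed libraries at 8.79 CPM. The gap was 0.760 of the range of the 6 stressed libraries, above Dixon's 95% limit for 6 samples; 27 genes were checked this way, 1 stood out, and chance gives about 1 in 20.

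The 20 genes below were taken because they were called but not alike, or had opposite signs and a called difference. Their passing edgeR's quasi-likelihood test of the difference between the stressed groups thus follows from the choice and is no further result. Over all 15144 genes tested, 135 were called higher and 245 lower in that test (0.891% and 1.62%). Of the 20 genes, 15 were called in the pooled comparison, all not alike, and 5 were not called in it. The values are log2 differences, SA:ANH-KDM5Ci minus SA:ANH-vehicle, with the adjusted p. Among genes higher in the pooled comparison, the difference was 3.47 for Tmem252 (0.00034), 2.09 for Fam83d (0.000209), 2.42 for Maff, a small Maf factor (9.61e-06), 1.24 for Fas, the death receptor (0.0038), and 1.27 for Mc4r, the melanocortin 4 receptor (0.0225). Tmem252 and Mc4r had stressed libraries that overlapped NS. Among genes lower in it, the difference was -1.59 for Hes5, a Notch target (0.00259), -1.10 for Mycn (0.00476), -1.42 for Id3, an inhibitor of helix-loop-helix factors (1.2e-06), -0.71 for Opn3 (0.000378) and -0.70 for Cldn5 (1.56e-05).

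Genes with values of opposite sign in the stressed groups had differences of 1.69 for Pmaip1 (9.61e-06), 0.61 for Rhou (1.33e-05), 0.56 for Ppp1r10 (9.01e-05), 1.34 for Ddit4 (9.01e-05) and 0.97 for Mafk (0.000107). In the other direction they were -0.60 for Cckbr, a cholecystokinin receptor (0.000209), -1.35 for Hic1 (0.000209), -0.60 for Npy1r, a neuropeptide Y receptor (0.00036), -0.56 for Zfp36l2 (0.000381) and -0.49 for Kcnv1 (0.000743). Rhou, Hic1, Npy1r, Zfp36l2 and Kcnv1 are those not called in the pooled comparison (adjusted p = 0.0921 to 0.129).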

How the results depend on the processing

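Values are given as genes called, genes alike and sterol list members called lower, which were 218, 132 and 16; the sterol count was recomputed as an alternative chosen after the data were seen. DESeq2 called 419 and 282. The 2-group fit gave 18, 18 and 3. With the striatal score as a covariate the counts were 91, 55 and 7, and with the meningeal score 107 and 67, of which 42.06% of the called genes were higher. At an adjusted p threshold of 0.01 they were 52, 19 and 4, and at 0.10 they were 412 and 266. Asking that both single comparisons pass, or that the larger of the single p-values passes after adjustment, left 2 alike genes. Leaving out 1 library gave 41 to 260 called, 10 to 185 alike and 4 to 18 sterol genes. The lowest counts came without NS replicate 3. Without the other libraries, called and alike genes were 160 and 69 (NS replicate 1), 76 and 41 (NS replicate 2), 98 and 54 (SA:ANH-vehicle replicate 2), 137 and 80 (SA:ANH-vehicle replicate 3) and 109 and 54 (SA:ANH-KDM5Ci replicate 1). The cause was not tested, beyond fewer samples. The other settings stayed within 1.5 times, and the share of higher calls ranged from 42.06% to 56.7%. No alike gene reversed, which the separation of most of them from NS largely set in advance.

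Replicate numbers gave no clear pairing over all groups. Of same-numbered pairs, 3 of 9 had correlated deviations above 0.1 (range -0.144 to 0.238), against -0.251 to 0.209 for other pairs. Of the libraries, 4 of 9 correlated best with their own number. Between the stressed groups, however, same-numbered pairs were at 0.238, 0.0839 and 0.184. With 3 numbers per group, these correlations cannot decide whether same-numbered libraries belong together. With the replicate block, 240 genes were called and 149 were alike, with 111 of the 132 alike genes still called. Low counts limit genes near 1 CPM, and 3 libraries per group limit the spread estimate.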

Other observations

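Of the cytosolic ribosomal protein genes, all 41 tested had a positive pooled value, with medians of 0.09 in SA:ANH-vehicle and 0.15 in SA:ANH-KDM5Ci, yet 0 passed by edgeR's quasi-likelihood test, 16 had an unadjusted p under 0.05, and for 5 all stressed libraries were above NS. Over all 15144 genes tested, 7683 had a positive value, and for 3.22% all stressed libraries were above NS. The summed level of the ribosomal list overlapped between groups, at 6818 to 7391 CPM in NS, 7081 to 7884 CPM in SA:ANH-vehicle and 7216 to 8406 CPM in SA:ANH-KDM5Ci. Microglia markers had 0 calls of 19 with a median of 0.12, and 15 were positive. Nuclear genes of oxidative phosphorylation had 0 calls of 36 and a median of 0.05. Collagen and matrix genes had 0 calls of 33, medians of -0.01 and -0.12, and 4 below an unadjusted p of 0.05, all lower. With 1.44% of all genes called, 0 calls are also reached by lists of these sizes, so nothing is read from these counts.

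Among ion channels, Kcnn2, a calcium-activated potassium channel, was the alike call of 42 tested, against 0.872% of all genes. It was at 27.5, 26.4 and 28.6 CPM in NS, at 31.1, 30.7 and 30.7 CPM in SA:ANH-vehicle and at 34.5, 32.5 and 32.8 CPM in SA:ANH-KDM5Ci, and rose by 0.22 (SE 0.05, adjusted p = 0.0386), a call kept in 2 of 9 fits without 1 library (up to 0.2). Kcna4, of the same list, fell by 0.34 (adjusted p = 0.0190) but was not alike. Lgr6, a receptor of R-spondins, fell by 0.98 (adjusted p = 0.0445), Plekhd1 by 0.64 (0.0342), Myh6, a heavy chain of cardiac myosin, by 0.54 (0.044) and Mettl27 by 0.47 (0.0201), with adjusted p up to 0.278, 0.193, 0.239 and 0.14 when 1 library was left out. Myh6 overlaps Cmtm5 on the genome.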
